A study of Mus musculus with 8 samples.

Results

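The genes described are 33 that build or guard protein folding in the endoplasmic reticulum (ER), measured in CD4+ T cells of BALB/c mice. They were taken from a list of 33 symbols, all of which had at least 1 probe set naming that gene alone. They account for 33 of 18194 genes and 82 of 45101 probe sets on the array, and where a gene had several probe sets the brightest on average stands for it. All 33 lay above the floor on low signal (log2 5.22 on at least 2 arrays) and were tested. Primary cells were kept for 1 h with or without plate-bound antibody to CD3 and soluble antibody to CD28, which engage the T cell receptor complex and a costimulatory receptor. For the next 6 h they had either DMSO or 4 µM dorsomorphin, a kinase inhibitor known to block type I receptors of bone morphogenetic proteins and also AMPK, a kinase that senses low energy. The 4 groups of 2 arrays each are called control (unstimulated, DMSO), dorsomorphin (unstimulated), stimulated (DMSO) and stimulated with dorsomorphin. The labels give neither the age nor the sex of the mice, nor whether cells were pooled or replicates were separate animals or cultures. The p-values below therefore reflect array-to-array spread alone, which could be technical.

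Proteins bound for the surface, for secretion or for the ER itself enter through the Sec61 channel, and chaperones and disulfide isomerases inside the ER fold them. Chains that fail are drawn back out and degraded, a route called ER-associated degradation. When unfolded chains build up, the sensors Ern1 (IRE1), Atf6 and Eif2ak3 (PERK) raise the transcription of folding and degradation genes and slow translation, a program called the unfolded protein response, on which activated lymphocytes are known to draw as they enlarge and begin to secrete.

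Promoter sequence shows which of these genes carry the element best known from this response, the ER stress element (ERSE). Its letters are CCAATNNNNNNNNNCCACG. The CCAAT part is known to be bound by NF-Y and the CCACG part by ATF6. In the RefSeq promoter windows (GRCm38.p6, 250 bases before to 50 after the gene start), searched on both strands, 27 of the 33 genes had an entry and 9 of these held an exact match, against 37 of 27025 genes in all (0.137%). The element was first described in promoters of several of these same genes, so the share describes the list and is no independent finding. The matches are printed 5′ to 3′ on the gene's strand with 15 bases on each side, and the CCAAT and CCACG letters (or, in the reverse orientation, CGTGG and ATTGG) are in capitals. The first group is shown because these genes rose after stimulation.
Hspa5: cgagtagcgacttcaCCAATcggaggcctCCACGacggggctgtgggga
Calr: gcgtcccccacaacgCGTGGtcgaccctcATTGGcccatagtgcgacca
Canx: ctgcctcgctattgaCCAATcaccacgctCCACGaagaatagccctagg
Pdia6: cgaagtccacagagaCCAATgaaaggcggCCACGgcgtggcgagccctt
Creld2: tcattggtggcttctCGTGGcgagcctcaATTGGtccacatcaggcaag

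These 5 windows lie at chr2:34772010-34772058 (Hspa5, + strand), chr8:84847060-84847108 (Calr, - strand), chr11:50325785-50325833 (Canx, - strand), chr12:17266476-17266524 (Pdia6, + strand) and chr15:88819505-88819553 (Creld2, + strand). The match in Hspa5 ended 47 bases before the gene start. Matches in 4 more genes are shown because these genes carry the same letters and did not pass the test after stimulation; Hsp90b1 holds the element in both orientations.
Hsp90b1, far match: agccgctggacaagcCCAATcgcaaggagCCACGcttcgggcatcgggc
Hsp90b1, near match: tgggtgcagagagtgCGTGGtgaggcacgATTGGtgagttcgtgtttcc
Dnajc3: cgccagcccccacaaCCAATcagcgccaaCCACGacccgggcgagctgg
Syvn1: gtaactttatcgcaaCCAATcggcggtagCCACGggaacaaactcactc
Derl3: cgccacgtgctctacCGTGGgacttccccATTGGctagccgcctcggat

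The windows lie at chr10:86705623-86705671 and chr10:86705518-86705566 (Hsp90b1, - strand), chr14:118937812-118937860 (Dnajc3, + strand), chr19:6046517-6046565 (Syvn1, + strand) and chr10:75893227-75893275 (Derl3, + strand). The shorter related element ERSE-II, in which ATTGG and CCACG are 1 base apart, was found in Herpud1 and in Dnajb11, against 12 of 27025 genes (0.0444%). The match in Dnajb11 lies 7 to 17 bases after the gene start, not before it, and is not printed. In Herpud1 the match lies before the gene start, in chr8:94386362-94386402 (+ strand).
Herpud1: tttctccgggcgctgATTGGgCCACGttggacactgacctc

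The core of the UPR element, TGACGTGG, was in 0 of the 27 windows and in 193 of all genes (0.714%). Hyou1, Manf, Atf6, Derl1, Sec61a1 and Ssr2 had no entry in the table. A match says only that the letters are there, and no match says only that they are not in this window. After stimulation without dorsomorphin, the 9 genes with an ERSE match had a median log2 difference of 1.19, from -0.58 to 1.91, and 5 of them rose. The 18 with a promoter entry and no match had a median of 0.45, from -1.59 to 2.65, with 5 that rose and 1 that fell. Of all tested genes 8.99% rose and 14.4% fell. The genes without an entry are in neither class, and of these Hyou1, Manf, Atf6, Sec61a1 and Ssr2 rose. The ranges of the 2 classes overlapped over most of their length.

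The arrays had been brought to the same trimmed mean of 500 before deposit, and their median signals ran from 45.4 to 74.5. All 8 listed markers of CD4 T cells lay above the floor on every array. Their summed signal was 78964 to 80949 in control, 26571 to 37760 with dorsomorphin, 57761 to 61683 in stimulated cells and 38705 to 40319 in stimulated cells with dorsomorphin. With dorsomorphin in unstimulated cells 5 of the 8 fell, where 11.1% of all tested genes fell and 1.92% rose. The direction of calls there depends on scaling: centring each array on its median moved them from 268 higher and 1558 lower to 2195 and 596. Of the 5 listed plasma cell markers, whose cells are rich in ER, 2 were above the floor on every array. Their summed signal was 2172 to 2517, 2524 to 2530, 909 to 1541 and 1982 to 2748 in the same order. Jchain was the largest part of it, with 1971 and 1643 in control and 771 and 524 in stimulated cells. Jchain, the joining chain of antibodies, fell 2.83-fold after stimulation (limma adjusted p 0.0212). Sdc1, a plasma cell surface proteoglycan, lay under the floor on both stimulated arrays and was at least 2.44-fold lower there than in control (adjusted p 0.0142). The other 3 did not pass. Mzb1 differed by -1.26 and Tnfrsf17 by -1.22 on the log2 scale, while Slamf7 went the other way, with a log2 signal of 5.76 and 5.67 in control against 9.03 and 7.80 in stimulated cells (difference 2.70 ± 0.98, adjusted p 0.0999). With dorsomorphin in stimulated cells Slamf7 read 5.32 and 5.10 (difference -3.20 ± 0.98, adjusted p 0.0686), so its signal was highest in the stimulated pair, where that of Jchain was lowest. Summed signals were 478 to 582, 216 on both arrays, 208 to 318 and 352 to 371 for B cells, and 2804 to 3565, 1185 to 1341, 676 to 1330 and 971 to 1328 for myeloid cells. None of the B cell, NK cell or erythroid markers, 4 of 8 myeloid and 1 of 2 CD8 markers were above the floor on all 8 arrays. The erythroid sum varied most, with 69 to 569, 93 to 543, 65 to 148 and 63 to 380 in the same order. Of its 2 measured markers, Alas2 was higher on replicate 2 in every group (signal 3.37 and 541 in control). The other, Hba-a1, was lower on replicate 2 in control (signal 65.4 and 27.9), with dorsomorphin and in stimulated cells. In stimulated cells with dorsomorphin Hba-a1 was higher on replicate 2, with both arrays under the floor. The actin control probe sets, a sign of RNA length, had a 3′ minus 5′ log2 signal of 0.33 on both stimulated arrays and 0.47 to 0.80 on the others, while those of Gapdh did not set the stimulated arrays apart. The part of these markers and of RNA length in the results was not tested. In bulk RNA, fewer cells of a type and less RNA per cell cannot be told apart.

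Stimulation without dorsomorphin was the first comparison. Of the 33 genes, 15 rose and 1 fell in the limma fit of all 8 arrays (Benjamini-Hochberg adjusted p under 0.05 over 13984 genes), where 8.99% of all tested genes rose and 14.4% fell. The median log2 difference of the 33 was 0.80 and that of all tested genes -0.27, a distance of 1.07. Chaperones and co-chaperones rose in 7 of 10 cases and the isomerase group in 4 of 5. Translocon genes rose in 3 of 6, none of the 7 degradation genes passed, and among the 5 sensors and effectors 1 rose and 1 fell. The whole distribution moved with the scaling. Centring every array on its median shifted the median of all genes from -0.27 to 0.17 and changed the calls from 1257 higher and 2013 lower to 1701 and 1081. Cyclic loess gave 1594 and 1601, and the distance of the 33 from all genes was 0.75 under loess. Under centring it stayed at 1.07, which is no check, since centring shifts all genes alike. Under centring and loess 18 and 14 of the 33 rose. The count rests on single arrays of the contrast, since without either control array the calls over the whole array were lost. The median of the 33 was 0.82 without control replicate 1 and 0.73 without control replicate 2. That of all genes was -0.24 and -0.36. Without stimulated replicate 2, 1 of the 33 passed and 680 genes in all.

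**Figure D1:**
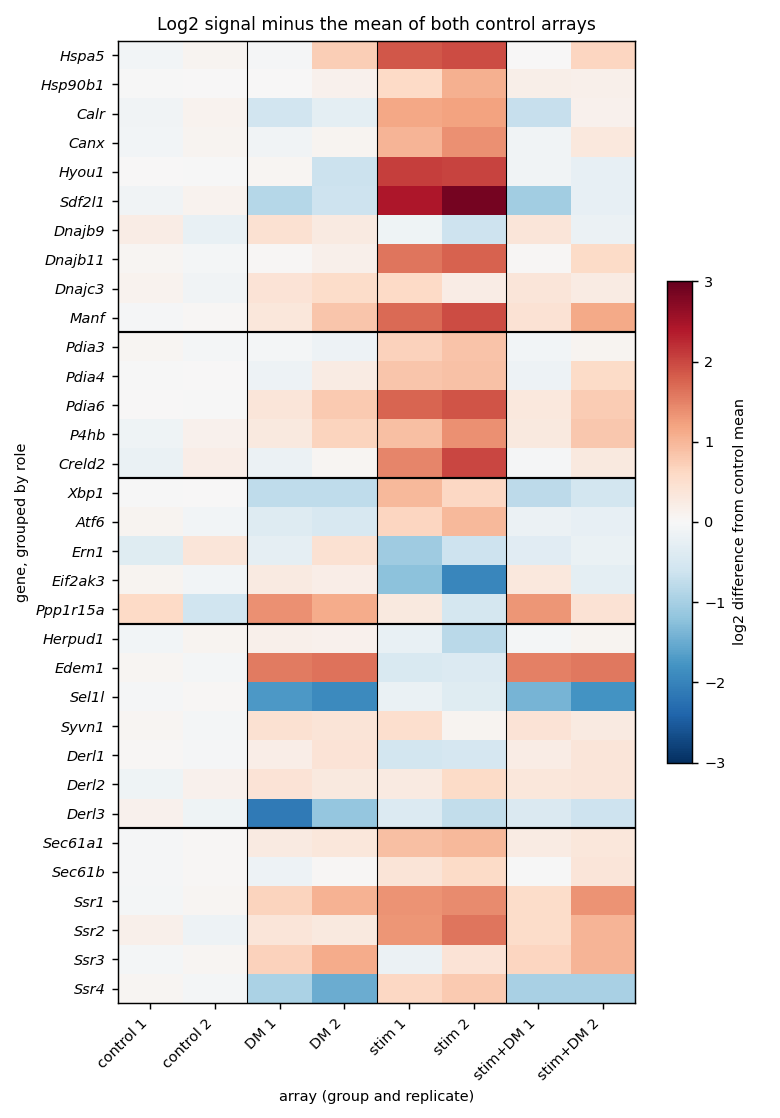
Log2 signal of each of the 33 genes on each of the 8 arrays, as the difference from that gene's control mean, with genes ordered by role; DM is dorsomorphin and stim is stimulation through CD3 and CD28. The stimulated columns stand out in the chaperone and isomerase rows (Sdf2l1 had the highest difference, 2.65 on average), while Edem1, Sel1l and Ssr4 stand out in both groups with dorsomorphin.

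Among chaperones, Hspa5 (BiP, the main ER member of the Hsp70 family, which also holds the stress sensors inactive) had a log2 signal of 12.64 and 12.82 in control, 12.69 and 13.47 with dorsomorphin, 14.60 and 14.68 in stimulated cells, and 12.75 and 13.38 in stimulated cells with dorsomorphin. Both stimulated arrays lay above the other 6, which overlapped among themselves. Hspa5 rose 3.76-fold with stimulation (log2 difference 1.91 ± 0.35, SE; adjusted p 0.0185).
Hyou1 (a large Hsp70 relative and nucleotide exchange factor for BiP) gave 9.79 and 9.75 in control, 9.83 and 9.12 with dorsomorphin, 11.84 and 11.80 in stimulated cells, and 9.66 and 9.53 with both. It rose 4.14-fold (log2 2.05 ± 0.29; adjusted p 0.0118), and the 2 stimulated arrays stood apart from all others. Sdf2l1, which works with BiP and its DnaJ partners to keep clients from aggregating, had 8.98 and 9.20 in control, 8.22 and 8.47 with dorsomorphin, 11.52 and 11.95 in stimulated cells and 8.06 and 8.84 with both. Its rise was the largest of the 33, 6.26-fold (log2 2.65 ± 0.34; adjusted p 0.0102), and all 4 arrays with dorsomorphin lay below the control arrays.

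Dnajb11, a DnaJ cofactor that hands clients to BiP, had a log2 signal of 10.50 and 10.37 in control, 10.48 and 10.59 with dorsomorphin, 12.03 and 12.21 in stimulated cells and 10.48 and 11.01 with both. It rose 3.22-fold (log2 1.69 ± 0.26; adjusted p 0.0132). Only the stimulated pair was set apart. Manf, a small protein held in the ER by BiP and secreted under stress, read 11.11 and 11.18 in control, 11.48 and 11.97 with dorsomorphin, 12.85 and 13.11 in stimulated cells and 11.57 and 12.28 with both. Manf rose 3.56-fold (log2 1.83 ± 0.33; adjusted p 0.0170), and its dorsomorphin arrays lay between control and stimulated ones. The lectin chaperones hold glycoproteins during folding: Calr, the soluble one, had 12.73 and 12.95 in control, 12.27 and 12.55 with dorsomorphin, 14.01 and 14.06 in stimulated cells and 12.15 and 12.96 with both. Canx, its membrane-bound relative, had 12.89 and 13.03, 12.86 and 13.04, 13.98 and 14.32, and 12.85 and 13.28 in the same order. Both were highest on the stimulated arrays, with no overlap with control: Calr rose 2.28-fold (log2 1.19 ± 0.32; adjusted p 0.0466) and Canx 2.29-fold (log2 1.19 ± 0.26; adjusted p 0.0268).

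The other 3 chaperones did not pass. Hsp90b1 (Grp94, the ER member of the Hsp90 family) had 13.15 and 13.17 in control against 13.75 and 14.23 in stimulated cells, a log2 difference of 0.83 ± 0.24 with an adjusted p of 0.0547. The groups did not overlap, and the 2 stimulated arrays lay far apart from each other. Dnajb9 (ERdj4, a DnaJ cofactor of BiP) differed by -0.37 ± 0.32 and Dnajc3 (p58IPK, a co-chaperone that also inhibits PERK) by 0.41 ± 0.23, with adjusted p of 0.446 and 0.260.

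Among the isomerases, which form and rearrange disulfide bonds, Pdia6 had the largest difference. Its log2 signal was 10.76 and 10.72 in control, 11.11 and 11.53 with dorsomorphin, 12.48 and 12.62 in stimulated cells and 11.06 and 11.51 with both. Pdia6 rose 3.51-fold (log2 1.81 ± 0.27; adjusted p 0.0122), with the stimulated pair above all other arrays and both dorsomorphin groups between it and control. Creld2, an ER stress-induced protein grouped here with the isomerases, gave 9.69 and 10.07 in control, 9.70 and 9.95 with dorsomorphin, 11.36 and 11.88 in stimulated cells and 9.86 and 10.17 with both. It rose 3.34-fold (log2 1.74 ± 0.29; adjusted p 0.0157), and the 6 other arrays overlapped. P4hb (protein disulfide isomerase itself) had 11.41 and 11.66 in control, 11.83 and 12.21 with dorsomorphin, 12.43 and 12.91 in stimulated cells and 11.82 and 12.34 with both, so the stimulated arrays were only a little above the others. It rose 2.20-fold (log2 1.14 ± 0.31; adjusted p 0.0488).
Pdia3 (ERp57, the partner of calnexin and calreticulin) read 12.95 and 12.84, 12.83 and 12.73, 13.59 and 13.75, and 12.81 and 12.97 in the order control, dorsomorphin, stimulated and both. Pdia3 rose 1.71-fold (log2 0.77 ± 0.21; adjusted p 0.0457), and its 6 other arrays lay within a narrow band. Pdia4 (ERp72) had 9.94 and 9.97 in control against 10.79 and 10.83 in stimulated cells; its difference of 0.85 ± 0.31 did not pass (adjusted p 0.0990).

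**Figure D2:**
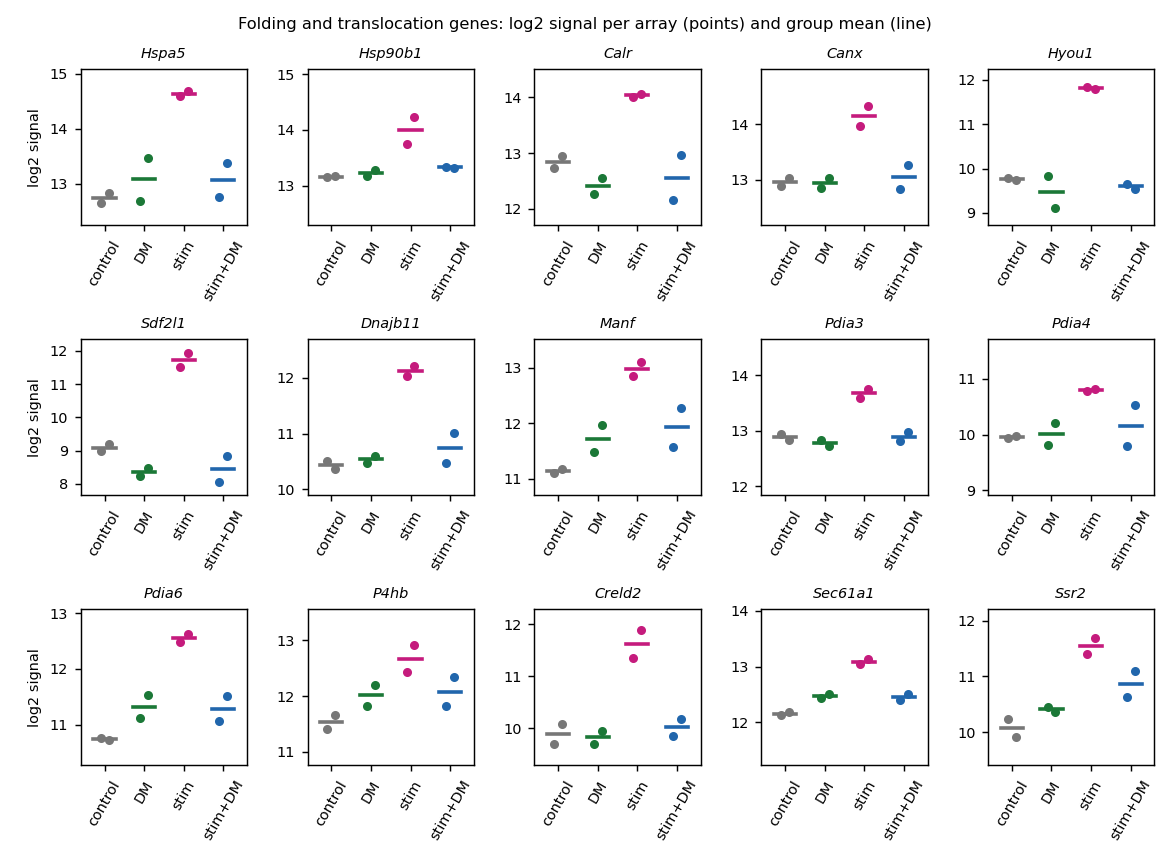
Log2 signal per array (points) and group mean (lines) for 15 folding and translocation genes, each on its own axis; DM is dorsomorphin and stim is stimulation. The 2 stimulated arrays are the highest of the 8 for each of these genes, and the stimulated arrays with dorsomorphin lie near the unstimulated ones with dorsomorphin.

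The translocon genes split. Ssr2, a subunit of the translocon-associated (TRAP) complex that helps chains enter the channel, had a log2 signal of 10.24 and 9.92 in control, 10.44 and 10.37 with dorsomorphin, 11.40 and 11.69 in stimulated cells and 10.63 and 11.09 with both. It rose 2.76-fold (log2 1.46 ± 0.27; adjusted p 0.0178) and stood highest in stimulated cells. Ssr1, another TRAP subunit, read 10.84 and 10.98 in control, 11.58 and 11.95 with dorsomorphin, 12.25 and 12.33 in stimulated cells and 11.46 and 12.25 with both. Ssr1 rose 2.60-fold (log2 1.38 ± 0.32; adjusted p 0.0319), and every array other than the controls was above them. Sec61a1, the pore subunit of the Sec61 channel, had 12.12 and 12.19 in control, 12.43 and 12.50 with dorsomorphin, 13.05 and 13.13 in stimulated cells and 12.40 and 12.51 with both. It rose 1.91-fold (log2 0.93 ± 0.20; adjusted p 0.0252), and the replicates of each group lay close together. Sec61b (a small Sec61 subunit), Ssr3 and Ssr4 (TRAP subunits) differed by 0.48 ± 0.23, 0.11 ± 0.31 and 0.71 ± 0.25, and their adjusted p of 0.194, 0.819 and 0.0945 missed the threshold.

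The sensors did not move as 1 group. Eif2ak3 (PERK, the kinase that phosphorylates the initiation factor eIF2α) had a log2 signal of 10.98 and 10.82 in control, 11.16 and 11.10 with dorsomorphin, 9.66 and 8.95 in stimulated cells and 11.22 and 10.62 with both. Its stimulated arrays were the lowest of the 8, and it fell by 1.59 ± 0.34 on the log2 scale, 3.02-fold (adjusted p 0.0250). Atf6, the membrane-bound factor that is cut free under stress, had 7.61 and 7.45 in control, 7.13 and 7.06 with dorsomorphin, 8.17 and 8.51 in stimulated cells and 7.36 and 7.28 with both. It rose 1.75-fold (log2 0.81 ± 0.22; adjusted p 0.0488), so these 2 sensors passed in opposite directions. Ern1 (IRE1, the kinase and RNase that splices Xbp1 RNA) read 8.40 and 9.11 in control, 8.50 and 9.22 with dorsomorphin, 7.70 and 8.15 in stimulated cells and 8.42 and 8.55 with both. Its difference of -0.84 ± 0.38 did not pass (adjusted p 0.165), and its replicates were spread by up to about the size of that difference.
Xbp1, the factor whose spliced form drives folding and degradation genes, had 12.58 and 12.61 in control, 11.83 and 11.83 with dorsomorphin, 13.57 and 13.21 in stimulated cells and 11.80 and 12.05 with both. The stimulated arrays were highest, but the difference of 0.80 ± 0.23 missed the threshold (adjusted p 0.0557), and the array does not tell spliced from unspliced Xbp1 here. Ppp1r15a (GADD34, which brings the phosphatase that reverses eIF2α phosphorylation) had 11.36 and 10.15 in control, 12.13 and 11.87 with dorsomorphin, 11.04 and 10.23 in stimulated cells and 12.08 and 11.18 with both. Control and stimulated arrays overlapped, with a difference of -0.12 ± 0.54 (adjusted p 0.895).

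None of the 7 degradation genes passed after stimulation, and their log2 differences ran from -0.58 (Derl3) to 0.42 (Derl2), with a median of -0.44. At an unadjusted p under 0.05, 1 of them was different, against 5365 of all 13984 tested genes. It was Derl1, a channel-like protein of the degradation route, at -0.53 ± 0.21 (adjusted p 0.118), and its other probe sets were mixed in sign.

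Dorsomorphin in stimulated cells was compared with stimulation alone next. Of the 33 genes, 13 fell and 3 rose, where 12.4% of all tested genes fell and 9.71% rose. The median of the 33 was -0.65 and that of all genes 0.07. The folding genes made up most of the lower ones, with 6 of 10 chaperones and 3 of 5 isomerases, and the degradation group had 2 higher and 1 lower. This comparison shares the stimulated arrays with the preceding one, so a high value on them enters both with opposite signs, and the values are given side by side with no test of how alike they are. Centring each array on its median moved the median of all genes to 0.32 and the calls from 1358 higher and 1738 lower to 1882 and 1162. Under it 5 of the 33 fell and 3 rose. Fewer of the 33 passed with any 1 array left out. Without stimulated replicate 2 the median of the 33 was -0.54, against -0.09 for all genes. Without the first array of stimulated cells with dorsomorphin these were -0.45 and 0.01. Without stimulated replicate 1 the 2 medians were -0.83 and 0.18. The control arrays do not enter these differences, so leaving 1 out cannot move the medians from -0.65 and 0.07. With the fit limited to the 4 arrays compared, no gene on the array passed. There 16 of the 33 and 4041 of all 13984 genes had an unadjusted p under 0.05. Edem1, Hyou1 and Sdf2l1 passed with any 1 of the 8 arrays left out.

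Sdf2l1 had the largest difference. It fell by 3.29 ± 0.34 on the log2 scale, 9.76-fold (adjusted p 0.00593), from 11.52 and 11.95 to 8.06 and 8.84. Hyou1 fell by 2.22 ± 0.29, 4.67-fold (adjusted p 0.00790), and Creld2 fell by 1.60 ± 0.29, 3.04-fold (adjusted p 0.0168). In each of these 3 genes both arrays with dorsomorphin lay below both stimulated arrays. Hspa5 fell by 1.58 ± 0.35 (adjusted p 0.0293), Calr by 1.48 ± 0.32 (adjusted p 0.0271) and Dnajb11 by 1.38 ± 0.26 (adjusted p 0.0177). Pdia6 differed by -1.27 ± 0.27 (adjusted p 0.0243), Canx by -1.09 ± 0.26 (adjusted p 0.0343) and Pdia3 by -0.78 ± 0.21 (adjusted p 0.0464), and all 3 passed. The chaperones and isomerases that did not pass had differences from -1.05 (Manf, adjusted p 0.0699) to 0.47 (Dnajb9, adjusted p 0.349). Manf, Hsp90b1, Pdia4 and P4hb all had stimulated arrays above those with dorsomorphin, without overlap. The share of all genes without overlap was not counted. The missed threshold does not show that these genes were alike in the 2 groups.

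Xbp1 fell by 1.46 ± 0.23, 2.76-fold (adjusted p 0.0118), and Atf6 fell by 1.02 ± 0.22, 2.02-fold (adjusted p 0.0276). Eif2ak3 went the other way and rose 3.06-fold (log2 1.61 ± 0.34; adjusted p 0.0240), from 9.66 and 8.95 to 11.22 and 10.62. In the 3 sensor and effector genes that passed, stimulated arrays with and without dorsomorphin did not overlap, which adds nothing to the test. Ern1 (0.56 ± 0.38, adjusted p 0.341) and Ppp1r15a (1.00 ± 0.54, adjusted p 0.245) had positive differences that did not pass.

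Among degradation genes, Edem1, the lectin that draws misfolded glycoproteins out of the folding cycle, had a log2 signal of 11.05 and 10.91 in control, 12.54 and 12.62 with dorsomorphin, 10.52 and 10.57 in stimulated cells and 12.49 and 12.56 with both. The 4 arrays with dorsomorphin lay above the 4 without, whatever the stimulation. Edem1 rose 3.95-fold in stimulated cells (log2 1.98 ± 0.20; adjusted p 0.00592). Derl1 had 12.76 and 12.70 in control, 12.93 and 13.13 with dorsomorphin, 12.18 and 12.23 in stimulated cells and 12.96 and 13.09 with both. It rose 1.77-fold (log2 0.82 ± 0.21; adjusted p 0.0393), from stimulated arrays that were the lowest of the 8 for this probe set. All 4 probe sets of Derl1 were higher with dorsomorphin here, but with stimulation they differed in sign. In 1423082_at the control arrays were lowest, at 10.27 and 10.21 against 10.48 and 10.70 in stimulated cells, and they were lowest in 1415693_at too.
Sel1l, the scaffold of the Hrd1 ubiquitin ligase complex, read 10.97 and 11.05, 9.29 and 9.11, 10.81 and 10.64, and 9.62 and 9.23 in the order control, dorsomorphin, stimulated and both. It fell by 1.30 ± 0.24, 2.46-fold (adjusted p 0.0165), and both dorsomorphin groups lay below both others, but its other probe sets gave other directions, as described with the probe sets. Herpud1 (a scaffold of the degradation complex, 0.54 ± 0.26), Syvn1 (the Hrd1 ligase, 0.04 ± 0.23), Derl2 (-0.06 ± 0.23) and Derl3 (0.05 ± 0.36) did not pass. Of the translocon genes, Ssr4 had 12.29 and 12.19 in control, 11.28 and 10.76 with dorsomorphin, 12.86 and 13.03 in stimulated cells and 11.26 and 11.27 with both. Ssr4 fell by 1.68 ± 0.25, 3.21-fold (adjusted p 0.0104), and was lower on all 4 arrays with dorsomorphin. The other 5 translocon genes had differences from -0.68 (Ssr2) to 0.72 (Ssr3), with Sec61a1 at -0.63 ± 0.20 (adjusted p 0.0709).

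**Figure D3:**
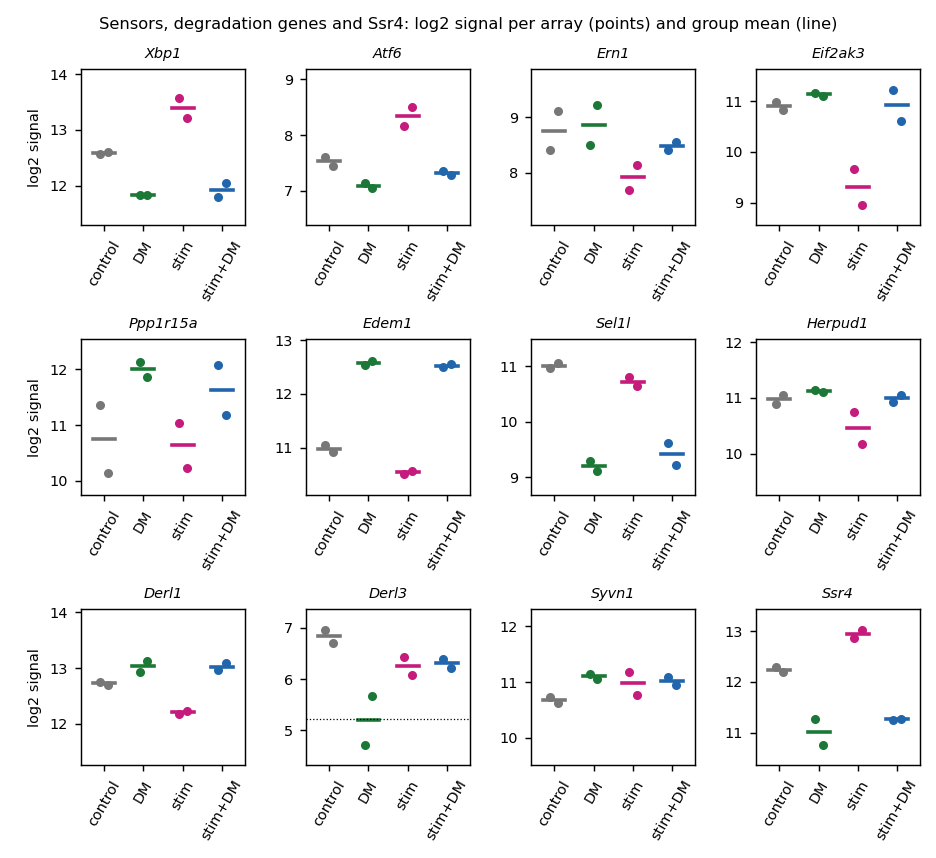
Log2 signal per array (points) and group mean (lines) for the 5 sensors and effectors, 6 degradation genes and Ssr4, each on its own axis, with the floor of 5.22 dotted; DM is dorsomorphin and stim is stimulation. Edem1 is high and Sel1l and Ssr4 are low on all 4 arrays with dorsomorphin, and Eif2ak3 is low on the 2 stimulated arrays alone.

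Dorsomorphin in unstimulated cells was compared with control. Of the 33 genes, 1 rose and 3 fell, where 1.92% of all tested genes rose and 11.1% fell, so the count was near that of the array as a whole. The median of the 33 was 0.15 and that of all genes -0.24. None of the 10 chaperones, 5 isomerases or 5 sensors and effectors passed, and their log2 differences ran from -0.76 (Xbp1, adjusted p 0.0835) to 1.24 (Ppp1r15a, adjusted p 0.182). Edem1 rose 3.02-fold (log2 1.59 ± 0.20; adjusted p 0.0126). Sel1l fell by 1.81 ± 0.24, 3.50-fold (adjusted p 0.0138), and Ssr4 fell by 1.22 ± 0.25, 2.33-fold (adjusted p 0.0342). Derl3, a degradation gene known mainly from secretory cells, had a log2 signal of 6.96 and 6.71 in control, 4.72 and 5.68 with dorsomorphin, 6.43 and 6.09 in stimulated cells and 6.40 and 6.22 with both. It fell by 1.64 ± 0.36 (adjusted p 0.0406), with 1 of the 2 dorsomorphin arrays under the floor of 5.22, where signal is not told from background.

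The split by direction in unstimulated cells followed the scaling. Centring each array on its median moved the median of all genes from -0.24 to 0.60 and the calls over the array from 268 higher and 1558 lower to 2195 higher and 596 lower. Of the 33 genes, 12 then rose and 1 fell, and 2 of the 4 genes named were among them. The distance of the 33 from the median of all genes was 0.38. Centring shifts all genes of a comparison alike, so it cannot change that distance. No gene on the array passed without control replicate 1 or without control replicate 2, and none of the 33 passed without dorsomorphin replicate 2. The median of the 33 was then 0.17, 0.15 and 0.06 in that order, against -0.22, -0.32 and -0.16 for all genes. In the fit of the 4 arrays compared, 2 of the 33 passed, where 67 genes were higher and 816 lower over the array. Fewer of the 33 also passed without either array of stimulated cells with dorsomorphin.

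**Figure D4:**
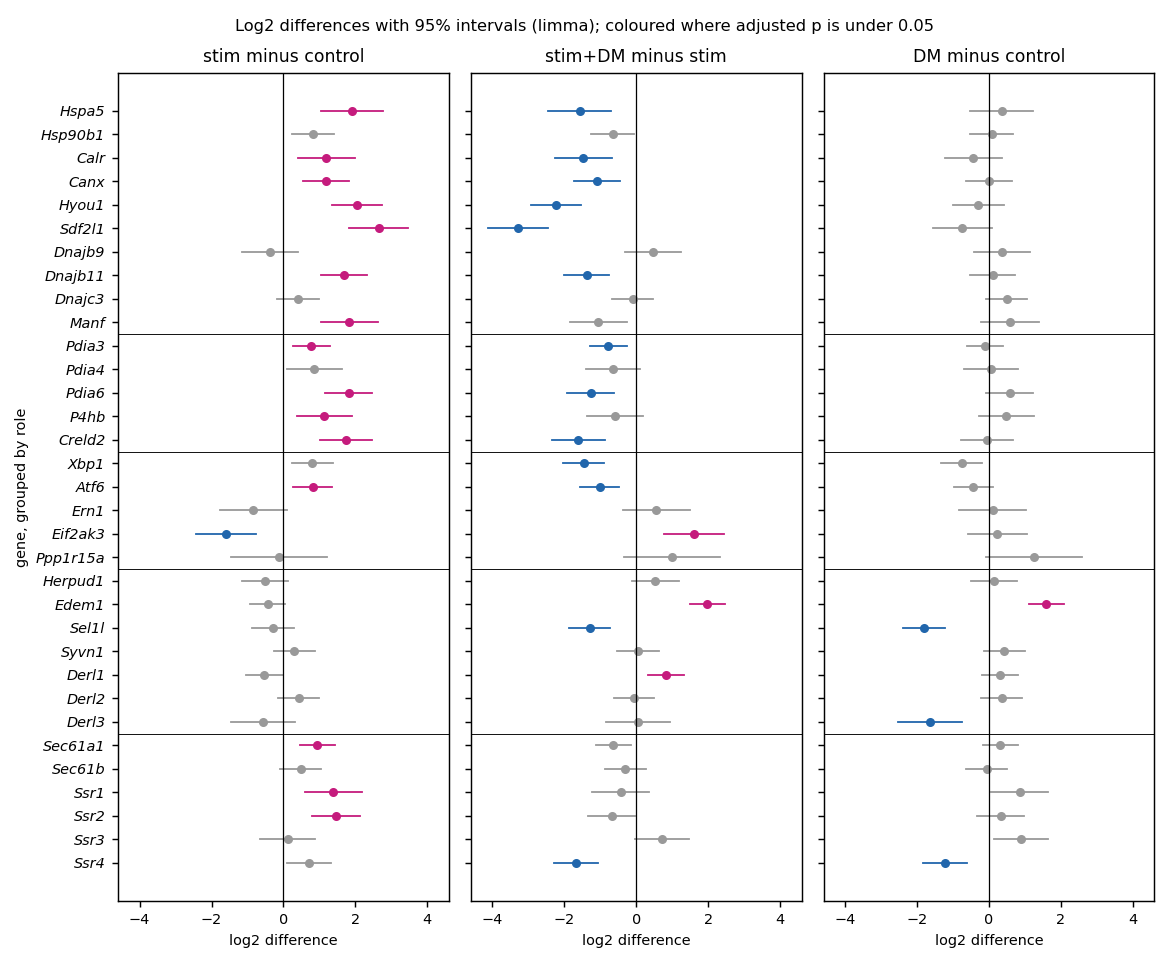
Log2 difference (points) and 95% interval (bars, from the moderated limma standard error) for the 33 genes in 3 comparisons that share arrays, coloured where the adjusted p was under 0.05; DM is dorsomorphin and stim is stimulation. With stimulation 15 genes are marked higher and 1 lower, with dorsomorphin in stimulated cells 3 and 13, and in unstimulated cells 1 and 3.

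Stimulation in the presence of dorsomorphin was compared with dorsomorphin alone. By limma 0 of the 33 genes passed, with 0% of all 13984 tested genes called, and 1 of the 33 (Derl3) and 539 genes in all had an unadjusted p under 0.05. The median of the 33 was 0.10, from -0.37 (Ern1) to 1.11 (Derl3), and that of all genes 0.06. The sign of that median is not settled, since centring gave -0.05. For 26 of the 33 genes the 95% interval lay within 1 log2 unit of 0 on both sides. The interval of Hspa5 ran from -0.89 to 0.86, that of Sdf2l1, the gene with the largest rise without dorsomorphin, was centred on 0.10, and that of Canx ran from -0.53 to 0.75. An adjusted p above the threshold does not show that stimulation had no effect here.

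Whether the response to stimulation differed with dorsomorphin was tested as an interaction. Here 0 of the 33 passed, where 0.0358% of all tested genes were higher and 0.0501% lower, 12 genes in all. An unadjusted p under 0.05 was found for 13 of the 33 and for 3687 of all 13984 genes. The smallest adjusted p were those of Sdf2l1 (-2.55 ± 0.48; 0.0659), Pdia6 (-1.85 ± 0.38; 0.0722) and Hyou1 (-1.93 ± 0.40; 0.0741). A loss of the stimulation response under dorsomorphin is therefore not shown by the test of the difference itself, although the 95% intervals of these 3 excluded 0 before adjustment. Of the other settings, 3 gave calls among the 33, and each also gave many over the array. With 16 added to the signal before the log, 3 passed, all lower, against 553 higher and 357 lower over the array. With only brighter genes kept, 8 passed, all lower, against 1231 higher and 636 lower of 9641 genes. A variance trend and robust fit gave 10 lower and 1 higher, against 1298 higher and 738 lower over the array. Centring on the median moved the calls over the array from 5 higher and 7 lower to 7 and 16.

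Stimulated cells with dorsomorphin were also set against control cells. Edem1 rose (log2 1.54 ± 0.20; adjusted p 0.0211) and Sel1l fell by 1.58 ± 0.24 (adjusted p 0.0254), and the other 31 genes did not pass. Of all tested genes 0.915% rose and 6.31% fell, and centring changed these calls from 128 and 882 to 535 and 265. The median of the 33 was 0.18 against -0.14 for all genes. The 95% interval lay within 1 log2 unit of 0 for 17 of the 33. Without either control array, or without either array of stimulated cells with dorsomorphin, the calls over the whole array were lost. The median of the 33 then ran from 0.04 to 0.29, and that of all genes from -0.22 to -0.08.

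Several genes have more than 1 probe set, and these did not always move together. In a fit of all 25898 single-gene probe sets above the floor, added after differences between probe sets of Sel1l and Edem1 were seen, 80 of the 82 were tested, and 22 genes had more than 1. Of all probe sets in that fit 7.53% rose and 11.1% fell with stimulation, 2.73% rose and 8.17% fell with dorsomorphin in unstimulated cells, and 10.6% rose and 10.4% fell with it in stimulated cells. All tested probe sets of a gene had the same sign in 15 of these 22 genes for stimulation, 14 for dorsomorphin in unstimulated cells and 17 for dorsomorphin in stimulated cells. For stimulation the genes of mixed sign were Derl1, Derl2, Dnajc3, Eif2ak3, Ern1, Sec61a1 and Sel1l. Sel1l was the 1 gene with probe sets called in both directions in either dorsomorphin comparison. The probe set reported above, 1436774_at, fell with dorsomorphin (in this fit -1.81, adjusted p 0.0156, unstimulated; -1.30, adjusted p 0.0203, stimulated). Another probe set, 1453559_a_at, had a log2 signal of 6.60 and 6.80 in control, 8.49 and 8.67 with dorsomorphin, 5.97 and 5.22 in stimulated cells and 8.47 and 8.72 with both. It rose (1.87, adjusted p 0.0245, unstimulated; 2.996, adjusted p 0.00668, stimulated), so the 4 arrays with dorsomorphin were low for the first and high for the second. 1430692_a_at also rose in both (1.55, adjusted p 0.0347; 1.64, adjusted p 0.0193), and the mean over all Sel1l probe sets differed by 0.10 in unstimulated and 0.72 in stimulated cells, neither past the threshold. A direction for Sel1l as a gene is therefore not given by these arrays.

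Edem1 has a second probe set, 1451218_at, with 11.11 and 11.18 in control, 10.93 and 10.88 with dorsomorphin, 10.27 and 9.77 in stimulated cells and 10.98 and 10.96 with both. It did not differ past the threshold with dorsomorphin in unstimulated cells (-0.24, adjusted p 0.577) and rose in stimulated ones (0.95, adjusted p 0.0491), and it fell with stimulation (-1.13, adjusted p 0.0346). The rise of Edem1 in unstimulated cells thus rests on 1 of its 2 probe sets. For Hspa5, 1427464_s_at rose with stimulation (2.19, adjusted p 0.0124) and fell with dorsomorphin in stimulated cells (-1.84, adjusted p 0.0105), while 1447824_x_at differed by 0.12 and -0.09. Ssr4 had a second probe set, 1435709_at, that was lower with dorsomorphin in stimulated cells as well (-1.11, adjusted p 0.0422).
Dim probe sets of 2 sensors rose with dorsomorphin in unstimulated cells, where the reported ones did not pass. For Ern1, 1421240_at lay under the floor on all 4 arrays without dorsomorphin and at 6.96, 6.86, 6.96 and 6.65 on the 4 with it, at least 3.22-fold higher in unstimulated (adjusted p 0.0190) and at least 2.997-fold higher in stimulated cells (adjusted p 0.0207). For Eif2ak3, 1430371_x_at was likewise under the floor without dorsomorphin and at least 2.62-fold (adjusted p 0.0296) and 3.26-fold (adjusted p 0.0285) higher with it.

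**Figure D5:**
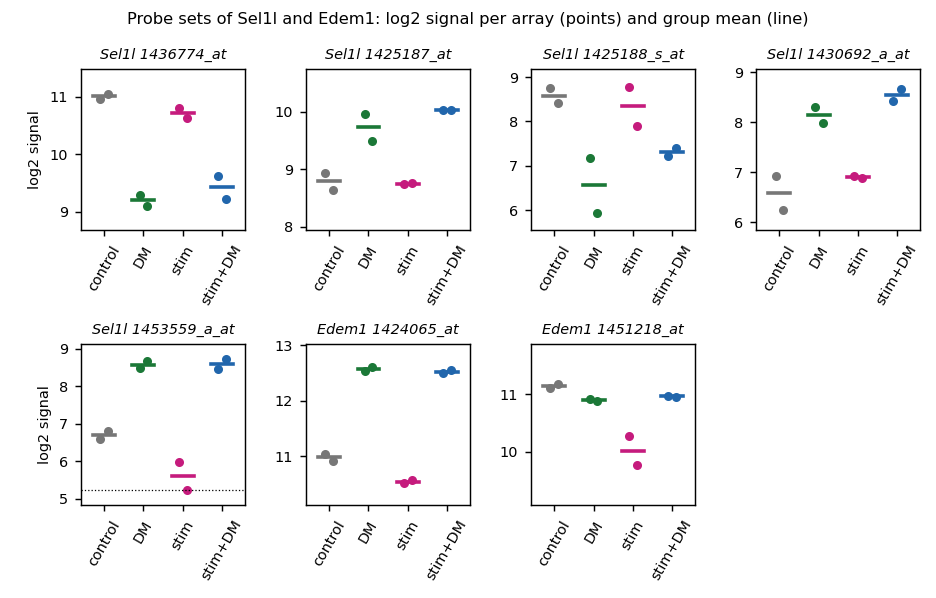
Log2 signal per array (points) and group mean (lines) for each of the 5 probe sets of Sel1l and 2 of Edem1, with the floor of 5.22 dotted, DM for dorsomorphin and stim for stimulation; levels of different probe sets are not comparable with each other. Sel1l probe sets cross, with 1436774_at lower and 1453559_a_at higher on all 4 arrays with dorsomorphin.

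Of 90 further genes of the pathway that were listed by role, 85 were tested. With stimulation 13 rose and 8 fell, with a median of 0.30, where 8.99% of all tested genes rose and 14.4% fell. In the PERK branch, where phosphorylation of eIF2α favours translation of the factor Atf4 and Atf4 induces Ddit3 (CHOP), 2 of 9 rose and 3 fell. Atf3, a stress- and activation-induced factor, had a log2 signal of 7.28 and 7.09 in control, 6.24 and 7.31 with dorsomorphin, 10.45 and 11.09 in stimulated cells and 6.50 and 7.59 with both. It rose by 3.58 ± 0.52 (adjusted p 0.0122) and fell by 3.72 ± 0.52 with dorsomorphin in stimulated cells (adjusted p 0.00895), so only the stimulated pair was high. Atf4 read 12.17 and 12.12, 13.18 and 13.13, 13.06 and 13.30, and 12.91 and 13.22 in the order control, dorsomorphin, stimulated and both. Atf4 was lowest in control: it rose with stimulation (1.04 ± 0.22; adjusted p 0.0263) and with dorsomorphin in unstimulated cells (1.01 ± 0.22; adjusted p 0.0402), and differed by -0.12 with dorsomorphin in stimulated cells (adjusted p 0.750).

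Ddit3 had 9.76 and 10.18 in control, 10.71 and 10.74 with dorsomorphin, 9.15 and 8.73 in stimulated cells and 10.60 and 10.53 with both. It fell by 1.03 ± 0.26 with stimulation (adjusted p 0.0387) and rose by 1.63 ± 0.26 with dorsomorphin in stimulated cells (adjusted p 0.0121), while 0.76 ± 0.26 in unstimulated cells did not pass (adjusted p 0.111). Levels of Ddit3 were thus lowest in the stimulated pair, as those of Eif2ak3 were. Trib3, a pseudokinase induced by this branch, fell by 1.97 with stimulation and by 2.18 with dorsomorphin in unstimulated cells (adjusted p 0.0376 and 0.0417). Bbc3 (Puma, a cell death gene) fell by 1.63 with stimulation and rose by 2.12 with dorsomorphin in stimulated cells (adjusted p 0.0236 and 0.0118).

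Among folding and redox genes outside the 33, 2 of 17 rose and 2 fell with stimulation. These shares, 11.8% each, were near the 8.99% and 14.4% of all tested genes. With dorsomorphin in stimulated cells 4 fell (23.5%), where 12.4% of all tested genes fell and 9.71% rose. Mogs, the glucosidase that trims the first glucose of a new glycan, rose by 2.06 ± 0.27 (adjusted p 0.0107) and fell by 2.28 ± 0.27 (adjusted p 0.00718). Fkbp2, an ER prolyl isomerase, rose by 1.61 and fell by 2.10, and Ero1b, an oxidase that recharges the isomerases, fell by 1.26 with stimulation. Pdia5 lay under the floor in stimulated cells with dorsomorphin and was there at least 1.66-fold lower than in stimulated cells. In the translocation, signal peptidase and oligosaccharyltransferase list, 5 of 19 rose with stimulation and none fell. Rpn1, Ddost and Stt3a, which are subunits of the complex that adds N-linked glycans, rose by 1.90, 1.26 and 1.25, and Rpn1 fell by 1.47 with dorsomorphin in stimulated cells. Srpr and Srprb, the receptor that docks ribosomes at the ER, were lower there too (-0.97 and -0.94). In that comparison 4 of the 19 fell and 1 rose, and with dorsomorphin in unstimulated cells none passed.

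The remaining lists were mixed, and their counts with stimulation stand beside 8.99% of all tested genes that rose and 14.4% that fell. Of 15 further degradation genes, 1 rose and 2 fell with stimulation: Nploc4, a cofactor of the extracting ATPase, rose by 0.99, the lectin Erlec1 fell by 1.29 and Edem2, a relative of Edem1, fell by 1.24. With dorsomorphin Faf2, a membrane adaptor for that ATPase, fell in both states (-1.51 unstimulated, -1.58 stimulated) and Ube2j1, an ER ubiquitin-conjugating enzyme, rose in both (1.63 and 1.02). Os9, a lectin partner of Sel1l, fell by 1.93 in unstimulated cells, and Erlec1 rose by 0.85 in stimulated ones. Among the stress regulators Atf6b, a relative of Atf6, rose by 1.16 with stimulation and fell with dorsomorphin in both states (-1.59 and -2.36). Of the proteases that release Atf6, Mbtps2 fell with dorsomorphin in both states (-2.21 and -2.36), and Mbtps1 fell by 0.95 with stimulation and rose by 1.45 with dorsomorphin in stimulated cells. Creb3l2, another membrane-bound factor, rose with stimulation (0.99) and with dorsomorphin in unstimulated cells (1.31).
For the COPII coat, which buds vesicles from the ER, 1 of 13 rose with stimulation, Sec13 by 1.45. Preb, the exchange factor that starts coat assembly, fell with dorsomorphin in both states (-2.43 and -2.08), as did Sec24a (-1.39 and -1.29). Sec24d fell in unstimulated cells (-1.63) and Sec23a rose in stimulated ones (1.24). Over the 85 genes, 3 rose and 8 fell with dorsomorphin in unstimulated cells, where 1.92% of all tested genes rose and 11.1% fell. With it in stimulated cells 7 rose and 14 fell, where 9.71% of all tested genes rose and 12.4% fell. For stimulation with dorsomorphin 0 passed, as over the whole array.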

How the data were processed

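The authors deposited linear signal intensity values for 45101 probe sets on 8 Affymetrix arrays. RMA and affy are named in the submitters' processing notes, with no version. The values deposited are not on the log2 scale of RMA output and share a trimmed mean of 500 (2% trimmed at each end), so the step that made them is not known. The log2 of each deposited value was taken with no further normalization. Probe sets with 1 symbol in the platform annotation of 2016 (34958) were used, 1 per gene (the highest mean over the arrays). A gene was tested if it exceeded, on 2 or more arrays, a floor set at the 40th percentile of the whole table (log2 5.22, or a signal of 37.3), which left 13984. Where both arrays of a group were under that floor, folds are lower bounds against it.

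The 8 arrays entered 1 linear model (limma 3.58.1 under R 4.3.3, moderated by eBayes without trend), with 6 contrasts and two-sided p-values adjusted by Benjamini-Hochberg over all tested genes, at a threshold of 0.05. The fit was tested on simulated data. The number of arrays limits the precision. Members of each list, the rule for named genes (members past the threshold, the sensors and Hspa5 with values per array; up to 3 further genes per list and contrast with the largest differences past the threshold, and Atf4, Ddit3 and Atf3) and the alternatives were chosen with earlier results of these data known. Promoter windows are RefSeq's (GRCm38.p6). Of the listed further genes, Nupr1 was above the floor on 1 array and was not tested, and 4 were not measured here.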

Additional observations from a re-analysis of the deposited data

How the results depend on the processing

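Of the 33 genes, the number past the threshold moved by more than 1.5 times under several settings. Without a filter on low values it went from 16 to 9 for stimulation, from 4 to 2 and from 16 to 10 for dorsomorphin in unstimulated and stimulated cells, and from 2 to 1 for stimulated cells with dorsomorphin against control. Over the array, with 18194 genes in place of 13984, the calls went from 3270 to 2122, 1826 to 927, 3096 to 2072 and 1010 to 264. With only the arrays of the 2 groups the count among the 33 was 8, 2, 0 and 0 in that order, with 1668, 883, 0 and 0 over the array. This fit could not be made for the interaction. Median centring gave 13 and 8 for dorsomorphin in unstimulated and stimulated cells and 1 against control, with 2791, 3044 and 800 over the array. Averaging the probe sets of each gene gave 1 in unstimulated cells and 0 against control, with 844 and 334 over the array. It also turned the sign of Sel1l (0.10, adjusted p 0.851; 0.72, adjusted p 0.134; 0.45 against control, adjusted p 0.399). A variance trend and robust fit gave 7 in unstimulated cells, 7 against control and 11 for the interaction, with 3101, 2185 and 2036 over the array. The interaction had 3 with 16 added to the signal (910 over the array). It had 8 with the 60th percentile filter (1867 over the array), against 0 (12 over the array). Leaving out 1 array at a time gave 0 to 13 for stimulation, 0 to 3 and 4 to 13 for dorsomorphin in unstimulated and stimulated cells, 0 to 2 against control, and 0 for the interaction and for stimulation with dorsomorphin, which stayed at 0 under every setting tried. Where this left 1 array in a group, that array was assumed to vary like the other groups. Fewer arrays or more genes tested are part of these settings; the cause of the other shifts was not tested.

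The called genes kept their sign under 9 other settings and with each array left out, with the exception of Sel1l. Dnajb11, Hspa5, Hyou1, Manf, Pdia6, Sdf2l1 and Ssr2 passed for stimulation under all 9. The labels number the replicates 1 and 2 without saying what a number marks. Deviations from group means of arrays with the same number correlated at 0.07 to 0.18 across genes, positive in each pair of groups. Arrays with the same number thus shared a small part of their deviation. Its source was not tested, and whether it marks a pairing is not known. With a replicate block 17, 5, 17 and 2 genes passed, and 0 for the interaction and for stimulation with dorsomorphin.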
